A study of Mus musculus with 4 samples.

Results

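The genes described here act in the making, use and breakdown of NAD: Cd38, Bst1, Nampt, Naprt, Nmnat1, Nmnat3, Nadk, Nadsyn1, Parp1 and Sarm1. They were chosen by symbol, and every probe set that the platform annotation assigns to exactly 1 of these symbols was taken. This gave 9 probe sets, 1 for each of 9 genes, of 41345 probe sets in all. No probe set carried the symbol Cd38, so Cd38 was not analysed here, and its neighbouring paralogue Bst1 stands alone for that pair. The cells were mouse Ly6C-high monocytes sorted out of marrow pooled from 3 mice and grown in GM-CSF plus interleukin 4 (20 ng per ml of either), which drive them toward dendritic cells. One group of 2 arrays came from cultures given all-trans retinoic acid at 100 nM from the onset and the other group of 2 from cultures given the solvent DMSO, with RNA taken at 24 h. The labels give no genotype, strain or age, and do not say whether replicates were separate cultures, so the p-values cover the spread among these 4 samples only, and that may be technical. In such bulk samples, fewer cells of a type and less RNA per cell cannot be told apart.

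NAD carries electrons in metabolism and is also a substrate that enzymes split. Most cells remake it from nicotinamide, through Nampt and then an adenylyltransferase of the Nmnat family, while nicotinic acid enters through Naprt and ends at Nadsyn1, and tryptophan can supply the ring by a longer route. CD38 and BST1 (CD157) are ectoenzymes of the ADP-ribosyl cyclase family that split NAD outside the cell or in organelles, CD38 being the more active. CD38 is a classical retinoic acid target in human promyelocytic leukaemia cells, and BST1 was named for bone marrow stromal cells and is also found on myeloid cells.

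The arrays had median intensities of 80.0 to 81.8 over 39720 probe sets tested. Log2 intensities correlated across probe sets at 0.9931 and 0.9943 within the treatments and at 0.9841 to 0.9879 between them, and probe sets are not independent replicates. The retinoic acid response genes Cyp26a1, Aldh1a2, Dhrs3 and Rarb were 17.6-fold, 15.0-fold, 6.30-fold and 3.13-fold higher with retinoic acid (limma adjusted p = 0.00282, 0.00172, 0.00826 and 0.00646). With 1 array left out in turn the adjusted p ran from 0.0382 to 0.0542 for Cyp26a1, lost without retinoic acid replicate 1, and from 0.0362 to 0.0430 for Aldh1a2. It ran from 0.0382 to 0.0862 for Dhrs3, lost without either retinoic acid array, and from 0.0546 to 0.0785 for Rarb, lost whichever array was left out. With constant probe sets kept none of the 4 passed (adjusted p from 0.0535 to 0.0864). All 6 markers of the sorted cell type (Csf1r, Ccr2, Ly6c2, Fcgr1, Itgam and Lyz2) lay above the dim level. That level is a log2 intensity of 6.35, the 95th percentile of the means of 1405 olfactory and vomeronasal receptor probe sets, which these cells are not known to use. It serves as a guide, since no detection calls were used here.

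None of the 9 member probe sets passed the threshold, a limma adjusted p under 0.05 over all probe sets tested, while 2.09% of all probe sets tested did, 0.904% higher and 1.19% lower. Without adjustment 2 of the 9, Bst1 and Nampt, had a limma p under 0.05, both higher with retinoic acid, against 13.4% of all probe sets, 6.06% higher and 7.37% lower. The groups of 2 arrays did not overlap for 7 of the 9, 5 higher and 2 lower with retinoic acid, against 44.0% of all probe sets, 20.7% higher and 23.3% lower. Over the 9 the median log2 difference, retinoic acid minus DMSO, was 0.15 and the median absolute difference 0.15, beside -0.0058 and 0.10 over all probe sets tested. In both groups 1 of the 9 lay under the dim level, beside 19292 of the 39720 probe sets tested. The background thus held a larger share of dim probe sets. The members were chosen with earlier results of these data known, so these values beside the background are a description only. With 2 arrays against 2, an exact two-sided permutation test cannot give a p below 0.333, so each p rests on limma's model of the spread.

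**Figure D1:**
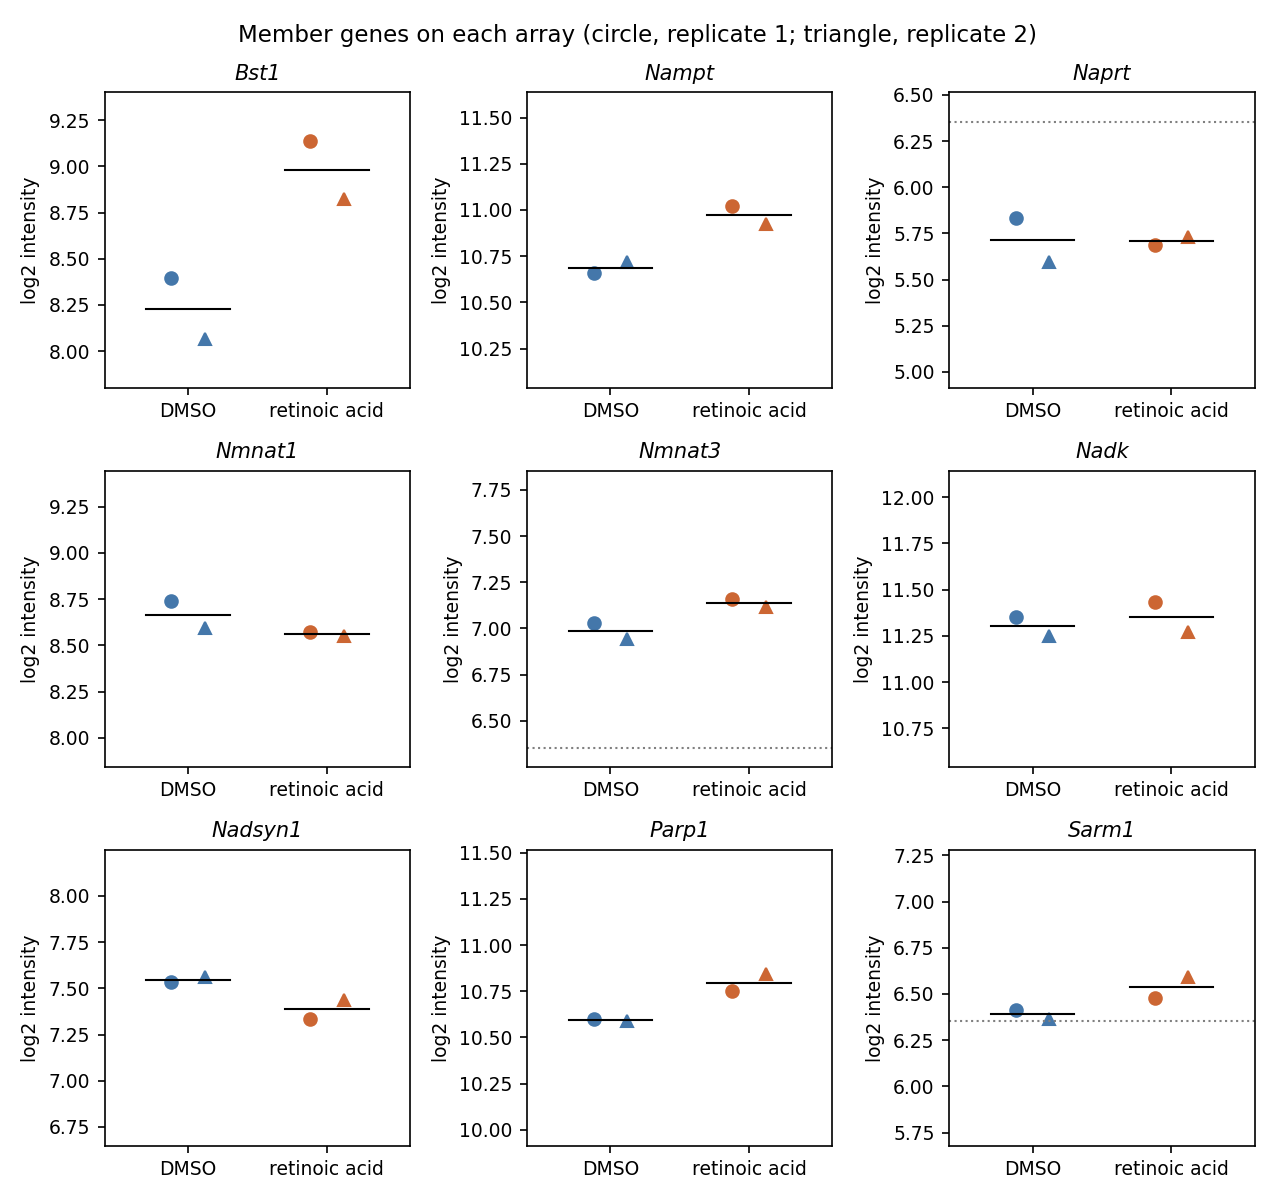
Log2 intensity of each of the 9 member genes on each array, DMSO in blue and retinoic acid in orange; circles are replicate 1, triangles replicate 2, black lines group means, the dotted line the dim level of 6.35, and every panel spans the same height. Bst1 shows the widest step between groups, from a mean of 8.23 to 8.98, and Naprt lies under the dotted line on all 4 arrays.

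Among the NAD-splitting enzymes, Bst1 had the largest difference of the 9. Its log2 intensity (probe set 17437198) was 8.40 and 8.07 with DMSO and 9.14 and 8.82 with retinoic acid. Both retinoic acid arrays lay above both DMSO arrays, the gap between the nearest arrays was 0.43, and replicate 1 was the brighter array in each group. On the linear scale these are intensities of 337 and 268 with DMSO and 564 and 453 with retinoic acid. The group means were 8.23 ± 0.23 and 8.98 ± 0.22 (log2 intensity, SD, n = 2), a difference of 0.75 ± 0.17 (limma SE), or 1.68-fold, with a 95% interval from 0.32 to 1.18. It did not pass (limma adjusted p = 0.142, unadjusted p = 0.00705) and ranked 1972 of 39720 by p. The call depends on which probe sets are tested together: among the 23521 probe sets with 1 symbol, where limma's estimate of the spread is also different, the same difference passed (adjusted p = 0.0303). In that setting 757 probe sets were called higher and 879 lower, beside 359 and 472 of the 39720 in the reported fit. Over the 12 alternatives tried, the adjusted p ran from 0.0303 to 0.487 and the difference from 0.59 to 0.91, always higher with retinoic acid.

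**Figure D2:**
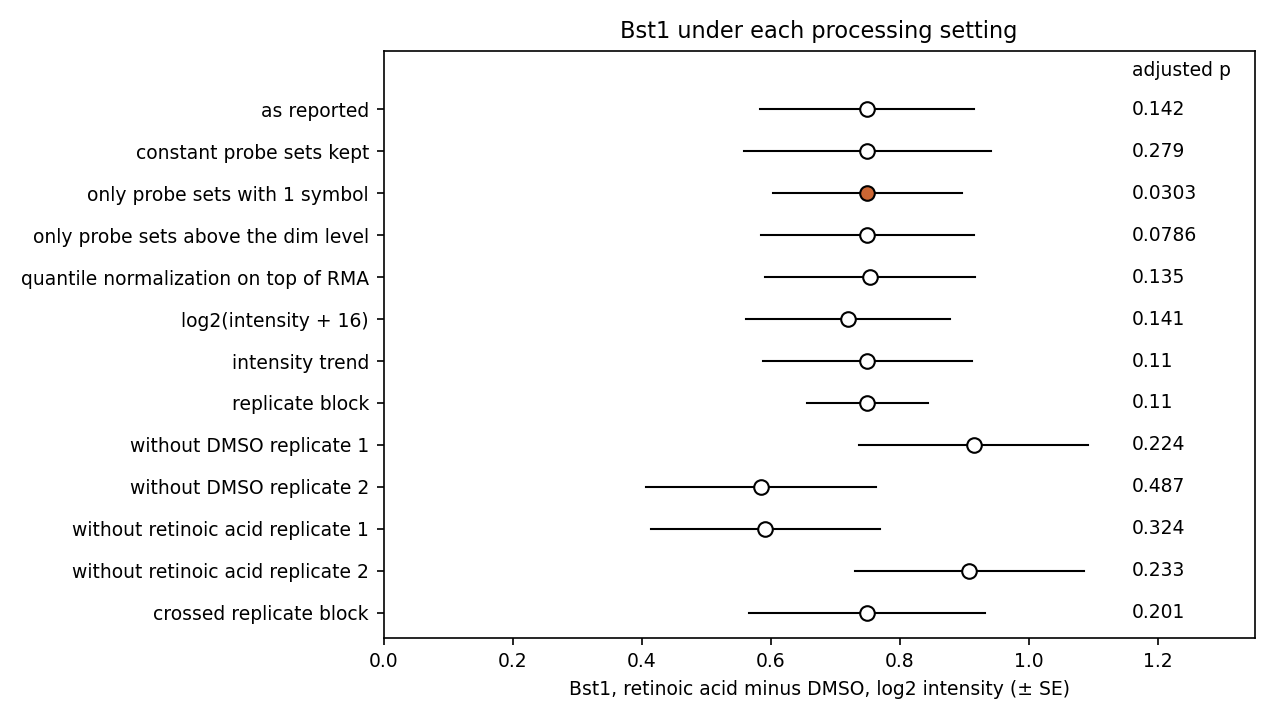
Bst1 difference, retinoic acid minus DMSO, on the log2 scale with its limma SE under the reported setting and each alternative, with the adjusted p at the right; the filled point passed the threshold. Every point lies above 0, between 0.59 and 0.91, and 1 of the 13 adjusted p-values, 0.0303, is under 0.05.

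Bst1 is known on other marrow cells too, so markers of some of them are given beside it, after those of the sorted cell. Itgam, Fcgr1 and Lyz2 differed by 0.66 ± 0.12, 0.60 ± 0.12 and 0.24 ± 0.14 (log2, limma SE). Ly6c2, Ccr2 and Csf1r differed by -0.19 ± 0.086, -0.34 ± 0.081 and -0.0053 ± 0.075. None of these 6 passed (limma adjusted p from 0.0893 to 0.989). All 8 neutrophil lineage markers lay above the dim level in at least 1 group, Ly6g with retinoic acid only, with summed linear intensities of 13543 and 14756 with DMSO and 15089 and 15628 with retinoic acid, and none passed. The differences were negative for 5 of the 8, with a median of -0.067 (log2). The higher sums go with Prtn3 and, to a smaller extent, Elane, both proteases of neutrophil granules. Prtn3 had linear intensities of 1951 and 2209 with DMSO and 3647 and 3241 with retinoic acid. Its log2 difference was 0.73 ± 0.11 (limma adjusted p = 0.0601). Elane had 3216 and 3379 with DMSO and 3967 and 3681 with retinoic acid. Its log2 difference was 0.21 ± 0.086 (limma adjusted p = 0.398). Of 6 marrow stroma markers, Cxcl12, Lepr and Pdgfra were under the dim level in both groups, and the summed intensities ran from 458 to 470 with DMSO and from 455 to 518 with retinoic acid. Of 7 measured B cell markers, Ms4a1, Pax5, Blk, Ebf1 and Cr2 were under the dim level in both groups, and the summed intensities were 408 and 414 with DMSO and 492 and 499 with retinoic acid. Most of that step came from Cd79b, a signalling chain of the B cell receptor, which was higher by 0.65 ± 0.090 (log2, limma SE, adjusted p = 0.0471). That call lay just inside the threshold and was not followed under the alternatives. With constant probe sets kept, no probe set passed. Of the further marker lists, the 5 measured T cell markers had summed intensities of 617 and 765 with DMSO and 385 and 457 with retinoic acid. Their median difference was -0.15 (log2), and none passed. Il7r among them differed by -1.44 ± 0.25 (limma adjusted p = 0.0873). The part of other cells in the Bst1 difference was not tested.

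Sarm1, an intracellular enzyme whose TIR domain splits NAD and which drives axon degeneration, was close to the dim level. Its log2 intensity was 6.41 and 6.36 with DMSO and 6.48 and 6.59 with retinoic acid. The groups lay 0.061 apart at their nearest arrays, and the difference of 0.15 ± 0.086 did not pass (limma adjusted p = 0.56, 95% interval -0.078 to 0.37).

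Parp1 uses NAD to build poly-ADP-ribose chains at broken DNA. Its log2 intensity was 10.60 and 10.59 with DMSO and 10.75 and 10.84 with retinoic acid. The DMSO arrays were nearly equal, and both retinoic acid arrays lay above them by at least 0.15. The difference was 0.20 ± 0.081, or 1.15-fold, with a 95% interval from -0.0070 to 0.41, and it did not pass (limma adjusted p = 0.39).

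In the salvage of nicotinamide, Nampt, the rate-limiting enzyme, had the second largest difference of the 9. Its log2 intensity was 10.66 and 10.72 with DMSO and 11.02 and 10.92 with retinoic acid, and the groups lay 0.21 apart at their nearest arrays. The means were 10.69 ± 0.042 and 10.97 ± 0.068 (SD, n = 2), a difference of 0.28 ± 0.083, or 1.22-fold, with a 95% interval from 0.066 to 0.50. It did not pass (limma adjusted p = 0.249, unadjusted p = 0.0208), and it did not pass under any of the 12 alternatives, with adjusted p from 0.114 to 0.595.

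The Nmnat enzymes, which add the adenylyl group after Nampt, lay on opposite sides of 0. Nmnat1, the nuclear enzyme, read 8.74 and 8.59 with DMSO and 8.57 and 8.55 with retinoic acid. Nmnat3, the mitochondrial enzyme, read 7.03 and 6.94 with DMSO and 7.16 and 7.11 with retinoic acid. The difference was -0.10 ± 0.088 for Nmnat1 and 0.15 ± 0.081 for Nmnat3, with 95% intervals from -0.33 to 0.13 and from -0.061 to 0.36, and neither passed (limma adjusted p = 0.698 and 0.521). The groups did not overlap for either gene, by 0.020 for Nmnat1 and 0.085 for Nmnat3, gaps smaller than the median distance of 0.104 between the DMSO arrays over all probe sets.

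Retinoic acid receptors bind pairs of short half-sites, so the promoter windows of the members were searched for them. RefSeq promoters (GRCm38.p6, 250 bases before to 50 after a start) were at hand for 8 of the 10 genes, in 10 windows. Bst1 and Naprt had no window, so neither was searched. The half-site AGGTCA and its variants, namely AGTTCA, then GGTTCA, and last GGGTCA, were looked for on both strands, overlaps allowed. At least 1 stood in 3 of the 10 windows, those of Cd38, Nampt and Nmnat3, and 43.7% of 32851 promoter windows held 1 or more. No member window held 2 half-sites in the same direction with 1, 2 or 5 bases between them, arrangements found in 0.222%, 0.268% and 0.0974% of all windows. With shares that low, finding none in 10 windows was the likely outcome for any genes. Sequence outside the windows was not searched, so the search cannot show whether a member has such an element. The windows of Nampt and Nmnat3 are shown because both genes were measured, with the half-sites in capitals. Nampt (chr12:32820085-32820384, plus strand) has AGGTCA at position -151 from the start, and Nmnat3 (chr9:98296320-98296619, plus strand) has AGGTCA at 24 and the variant AGTTCA at 30, with no base between them.
Nampt: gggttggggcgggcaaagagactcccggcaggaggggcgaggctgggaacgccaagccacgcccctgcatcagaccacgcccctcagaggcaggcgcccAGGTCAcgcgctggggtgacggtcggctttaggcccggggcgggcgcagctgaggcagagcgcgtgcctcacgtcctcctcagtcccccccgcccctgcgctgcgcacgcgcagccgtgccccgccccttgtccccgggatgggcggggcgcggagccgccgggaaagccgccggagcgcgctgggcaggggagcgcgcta
Nmnat3: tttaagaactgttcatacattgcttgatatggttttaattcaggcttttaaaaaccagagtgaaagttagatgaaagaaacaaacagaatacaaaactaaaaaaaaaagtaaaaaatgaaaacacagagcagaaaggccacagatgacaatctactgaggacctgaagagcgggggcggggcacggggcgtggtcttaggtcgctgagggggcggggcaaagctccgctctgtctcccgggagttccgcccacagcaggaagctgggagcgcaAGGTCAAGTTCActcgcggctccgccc
These letters are a description of the windows, and neither gene passed the test.

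On the nicotinic acid route, Naprt, which starts it, was under the dim level on all 4 arrays. It read 5.83 and 5.60 with DMSO and 5.69 and 5.73 with retinoic acid, the retinoic acid arrays lying between the DMSO arrays. The difference of -0.0055 ± 0.11 (limma adjusted p = 0.992, 95% interval -0.29 to 0.28) does not show whether the gene responded. Nadsyn1, the synthetase that ends this route and the tryptophan route, read 7.53 and 7.56 with DMSO and 7.34 and 7.44 with retinoic acid. Both retinoic acid arrays were below both DMSO arrays, and the difference of -0.16 ± 0.082 did not pass (limma adjusted p = 0.5, 95% interval -0.37 to 0.054).

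Nadk, the cytosolic kinase that turns NAD into NADP, was bright and overlapped between the groups. Its log2 intensity was 11.35 and 11.25 with DMSO and 11.43 and 11.27 with retinoic acid. The difference was 0.048 ± 0.097 (limma adjusted p = 0.891) with a 95% interval from -0.21 to 0.30.

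**Figure D3:**
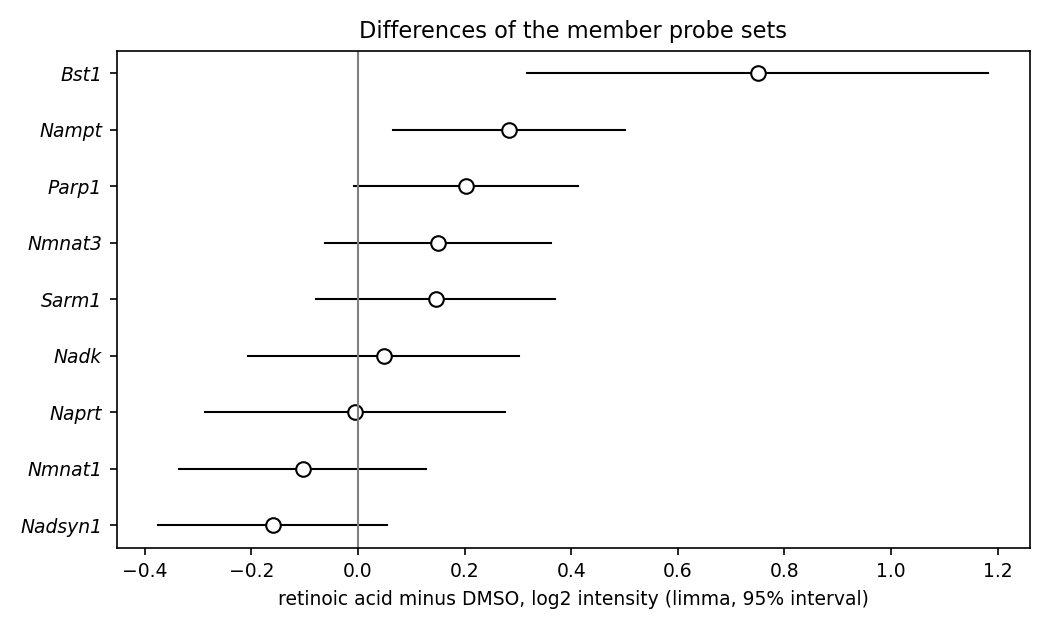
Difference in log2 intensity, retinoic acid minus DMSO, for the 9 member probe sets, with limma's 95% interval. The intervals of Bst1, 0.32 to 1.18, and Nampt, 0.066 to 0.50, do not include 0, and the other 7 do; none of the 9 passed after adjustment.

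Around these genes a wider NAD list of 77 genes was set, of which 71 had a single-symbol probe set; Cd38, Enpp1, Parp10, Art2a, Art2b and Adprh were not analysed here. A gene with several probe sets was represented by the brightest. Of the 71, 1 rose, 3 fell and 67 did not pass, against 3.07% of 22180 genes called in either direction, 1.28% higher and 1.79% lower. The list was chosen with earlier results of these data known, so its values beside those of all genes are a description only. The median difference was 0.057 and the median absolute difference 0.15, beside 0.0087 and 0.097 over all genes. In both groups 17 of the 71 lay under the dim level, beside 9121 of the 22180 genes, so the background held a larger share of dim genes. Without adjustment 15 of the 71 had a limma p under 0.05, 9 higher and 6 lower, beside 15.1% of all genes. With the constant probe sets kept in the fit, none of the 4 passed: the limma adjusted p was 0.0625 for Tpcn1, 0.0811 for Haao, 0.0811 for Noct and 0.103 for Parp8.

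**Figure D4:**
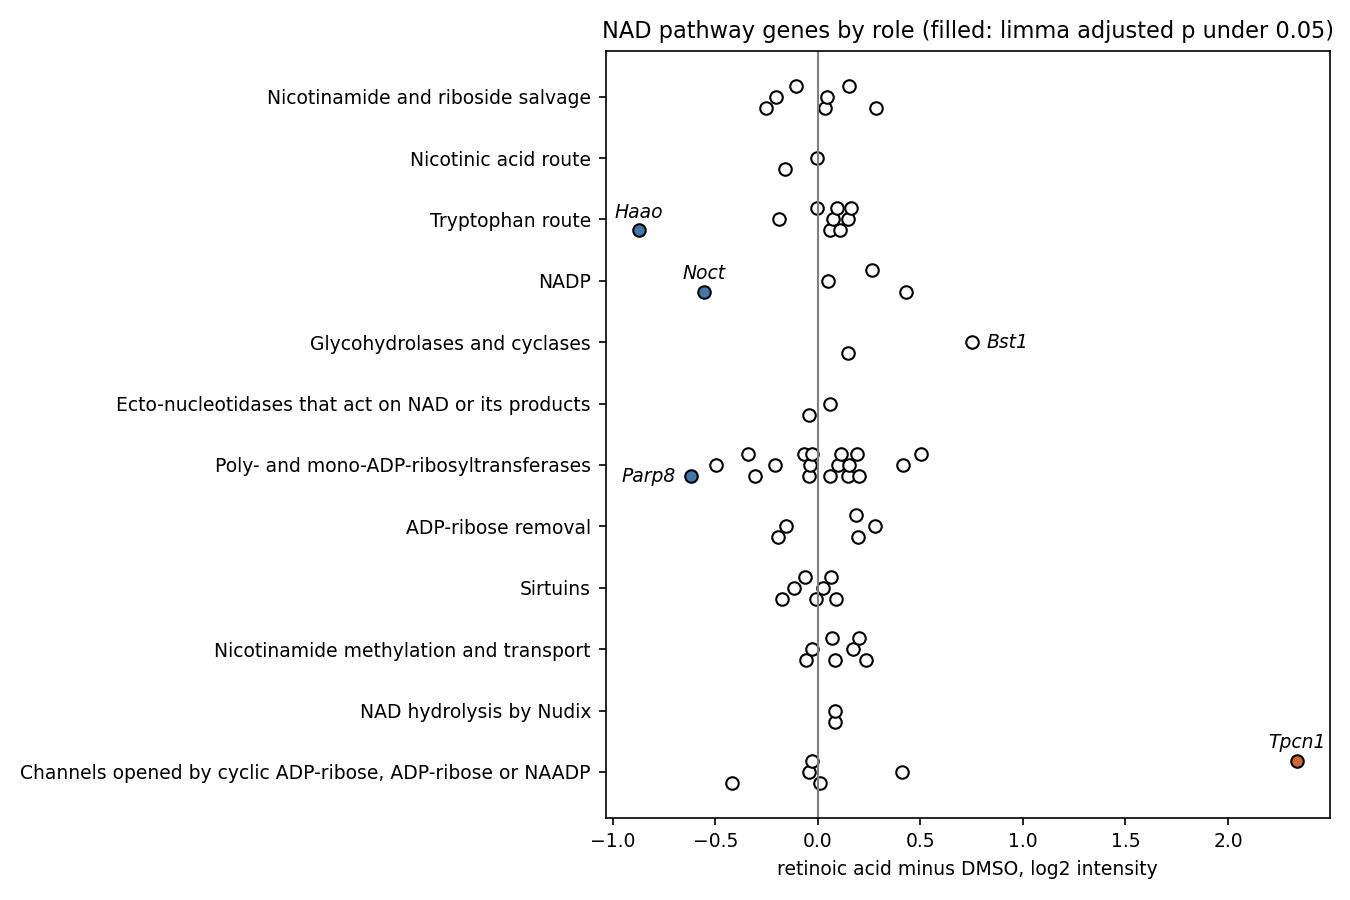
Difference in log2 intensity, retinoic acid minus DMSO, for the 71 measured genes of the NAD list, by role; 1 point is a gene's brightest probe set, and filled points passed at a limma adjusted p under 0.05. Tpcn1 stands apart at 2.34, Haao, Noct and Parp8 are the filled points below 0, and Bst1, which did not pass, is labelled at 0.75.

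The gene that rose was Tpcn1, an endolysosomal cation channel linked to NAADP, a messenger that CD38 can make. Its log2 intensity (probe set 17451987) was 8.79 and 8.66 with DMSO and 10.99 and 11.13 with retinoic acid. The groups were far apart beside the spread within them, with means of 8.73 ± 0.093 and 11.06 ± 0.099 (SD, n = 2). The difference of 2.34 ± 0.097 was 5.05-fold (limma adjusted p = 0.0043, 95% interval 2.08 to 2.59). Without any 1 array the difference stayed between 2.27 and 2.41 while the adjusted p ran from 0.0485 to 0.0558, and it passed only without retinoic acid replicate 2; without DMSO replicate 1, DMSO replicate 2 and retinoic acid replicate 1 it was 0.0530, 0.0558 and 0.0542. Its relative Tpcn2 read 9.84 and 10.02 with DMSO and 9.49 and 9.53 with retinoic acid, a difference of -0.42 ± 0.095 that did not pass (limma adjusted p = 0.151). Trpm2, a calcium channel that ADP-ribose opens, differed by 0.41 ± 0.13 from a level under the dim level with DMSO (limma adjusted p = 0.299). The ryanodine receptor gene Ryr1 differed by -0.043 ± 0.077 (limma adjusted p = 0.873).

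On the tryptophan route 1 of 9 genes fell, Haao, the dioxygenase that opens the ring of hydroxyanthranilate to give the precursor of quinolinate. It read 8.74 and 8.66 with DMSO and 7.78 and 7.87 with retinoic acid (log2 intensity, probe set 17347650). The difference was -0.87 ± 0.085, or 1.83-fold lower (limma adjusted p = 0.0201, 95% interval -1.10 to -0.65). It lost its call whichever array was left out: leaving out DMSO replicate 1, DMSO replicate 2, retinoic acid replicate 1 or retinoic acid replicate 2 gave adjusted p of 0.152, 0.152, 0.123 and 0.113. The other genes of the route did not pass, and the largest differences among them were those of Tdo2, Kynu and Qprt. Kynu, kynureninase, differed by 0.16 ± 0.16, Qprt, which makes the mononucleotide from quinolinate, by 0.15 ± 0.098 and Tdo2, under the dim level, by -0.19 ± 0.088 (limma adjusted p = 0.735, 0.615 and 0.462). The RefSeq promoter window of Haao (GRCm38.p6, chr17:83846741-83847040, minus strand) holds 1 of the half-sites. It is AGGTCA on the opposite strand at position -58, shown here as TGACCT because Haao had the largest fall of the list. The windows of Noct and Parp8 held no half-site, and Tpcn1 had no window. Among all 32851 promoter windows, 16.3% held AGGTCA and 43.7% held 1 or more of the half-sites.
Haao: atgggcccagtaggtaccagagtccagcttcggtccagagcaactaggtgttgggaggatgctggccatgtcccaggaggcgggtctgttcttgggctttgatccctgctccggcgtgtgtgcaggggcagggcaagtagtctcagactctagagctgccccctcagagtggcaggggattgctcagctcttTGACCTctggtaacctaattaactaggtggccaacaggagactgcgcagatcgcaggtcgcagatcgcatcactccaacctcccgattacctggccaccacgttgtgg

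Of 4 NADP genes, Noct fell and 3 did not pass. Noct (nocturnin, a phosphatase of NADP that follows the daily clock) read 8.41 and 8.38 with DMSO and 7.87 and 7.81 with retinoic acid. The difference of -0.56 ± 0.078 was 1.47-fold lower and lay just inside the threshold (limma adjusted p = 0.0489). The nearest values on the other side were those of Nnt, the mitochondrial transhydrogenase that passes hydride between NAD and NADP, which read 8.81 and 8.79 with DMSO and 9.27 and 9.19 with retinoic acid, a difference of 0.43 ± 0.080 (limma adjusted p = 0.0994). Nadk2, the mitochondrial NAD kinase, differed by 0.27 ± 0.083 (limma adjusted p = 0.277).

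Of 18 measured ADP-ribosyltransferases, 1 fell and 17 did not pass, and as many differences lay above 0 as below it, 9 each. Parp8, a mono-ADP-ribosyltransferase, fell: it read 9.92 and 9.89 with DMSO and 9.34 and 9.23 with retinoic acid, 1.54-fold lower (difference -0.62 ± 0.084, limma adjusted p = 0.0457). Noct and Parp8 also lost their calls whichever array was left out, with adjusted p from 0.174 to 0.285 and from 0.146 to 0.268 over the 4 arrays left out. Parp9 and Parp14, interferon-linked family members that act together in macrophages, differed by 0.50 ± 0.082 and 0.41 ± 0.082 and did not pass (limma adjusted p = 0.0725 and 0.115). Parp9 read 8.80 and 8.72 with DMSO and 9.30 and 9.23 with retinoic acid, with no overlap. Parp4, the member found in vault particles, differed by -0.49 ± 0.095 (limma adjusted p = 0.105). Tested among the probe sets with 1 symbol only, as for Bst1, the same differences passed for Parp9, Parp4 and Parp14 (limma adjusted p = 0.0139, 0.0232 and 0.0302) and for Nnt and Tpcn2 (0.0243 and 0.0431). That setting called 757 probe sets higher and 879 lower of 23521, beside 359 and 472 of 39720 in the reported fit.

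**Figure D5:**
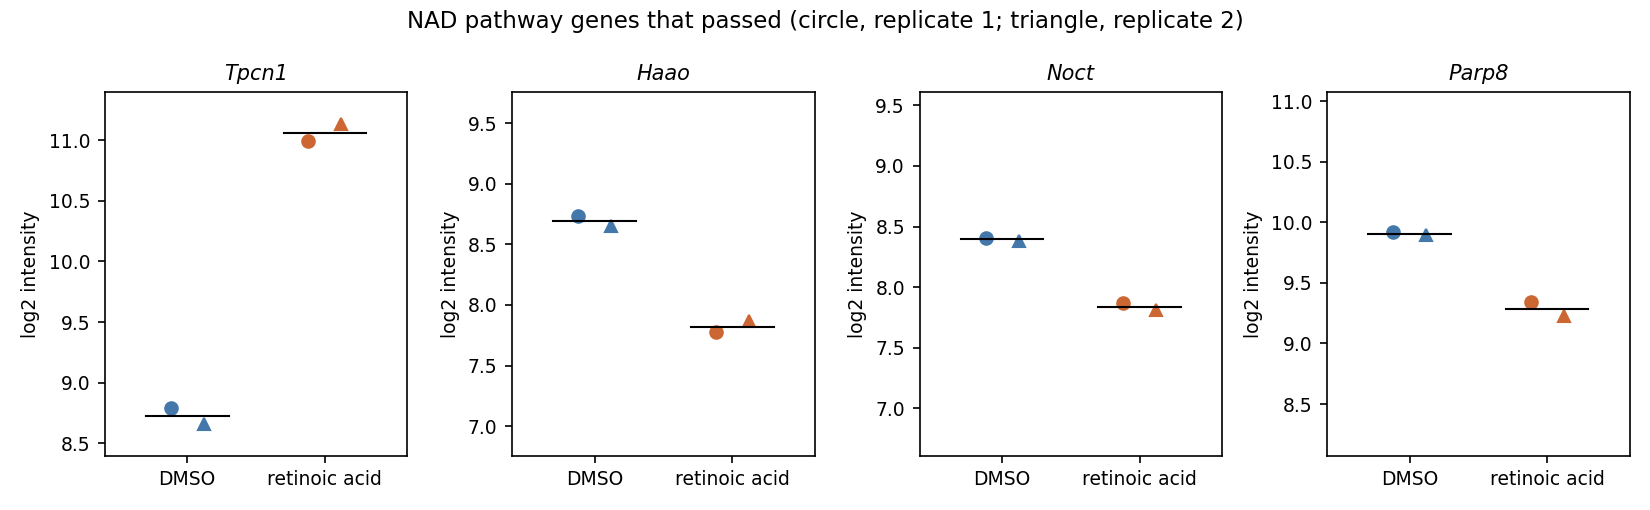
Log2 intensity on each array for the 4 genes of the NAD list that passed, DMSO in blue and retinoic acid in orange; circles are replicate 1, triangles replicate 2, black lines group means, and all panels span the same height. Tpcn1 moves from about 8.73 to 11.06, and Haao, Noct and Parp8 step down with no overlap between groups.

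In the other roles no gene passed. In the salvage group the largest differences after Nampt were those of Pnp, purine nucleoside phosphorylase, at -0.25 ± 0.11, and Nmrk1, a riboside kinase, at -0.20 ± 0.15 (limma adjusted p = 0.429 and 0.643). The 7 sirtuins, deacylases that consume NAD, had differences from -0.18 to 0.091, led by Sirt5 at -0.18 ± 0.096, Sirt1 at -0.12 ± 0.079 and Sirt6 at 0.091 ± 0.078. No 95% interval among the sirtuins reached beyond 0.43 in either direction. Of the enzymes that remove ADP-ribose, Oard1 differed by 0.28 ± 0.076, Macrod2, under the dim level, by -0.20 ± 0.16 and Adprhl2 by 0.19 ± 0.11. Slc25a51, the mitochondrial NAD carrier, differed by 0.23 ± 0.11, while Gja1 and Slc12a8, at 0.20 ± 0.13 and 0.17 ± 0.10, lay under the dim level. The Nudix hydrolase genes Nudt13 and Nudt12 differed by 0.086 ± 0.093 and 0.083 ± 0.090. The ecto-nucleotidase genes Nt5e and Enpp3, at 0.057 ± 0.091 and -0.042 ± 0.13, were under the dim level in both groups.

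The genes whose values over the 4 arrays were most like those of Bst1 were found by the Euclidean distance between profiles, each taken as log2 values minus their DMSO mean, among 12771 genes above the dim level. They were Ppfibp2, a liprin, at a distance of 0.072, Slc39a4, a zinc importer, at 0.10, Ltc4s, leukotriene C4 synthase, at 0.12 and Treml4, a Trem-like receptor, at 0.13. Their differences ran from 0.67 to 0.81 and none passed (limma adjusted p from 0.103 to 0.186). In each of them, as in Bst1, replicate 1 was the brighter array within both groups. Both this order and the similar differences follow from the choice by distance, which covers all 4 arrays. With 4 arrays such likeness is a description.

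By RefSeq gene order, Cd38 is the next protein-coding gene after Bst1. Of the 3 nearest genes on each side, 5 were measured. Fbxl5, an iron-sensing ubiquitin ligase subunit next to Bst1, read 9.25 and 9.25 with DMSO and 9.44 and 9.40 with retinoic acid, a difference of 0.17 ± 0.076 (limma adjusted p = 0.447). The stem cell marker gene Prom1 differed by -0.22 ± 0.12 (limma adjusted p = 0.509). C1qtnf7, Cc2d2a and Fgfbp1 lay under the dim level in both groups, with differences of 0.088, 0.19 and -0.018. None of the 5 passed.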

How the data were processed

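Total RNA was hybridised to 1-colour Affymetrix whole-transcript arrays, 2 per treatment. For every array the authors deposited an intensity of each probe set, made with RMA in Affymetrix Expression Console per the submitters' processing notes; tool versions and genome build are not given in the sources used here. RMA corrects background, equalises distributions and summarises probes; how this moved the differences of dim genes was not tested. The number of arrays limits the precision. Values on the linear scale were transformed to log2 and not normalized again. Gene names came from the platform annotation (23521 probe sets with 1 symbol, 1814 with several and 16010 unnamed here); genes of the NAD list were matched by symbol or, through the gene ID, an older symbol.

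The treatments were compared with limma 3.58.1 (R 4.3.3; lmFit, eBayes, two-sided, no covariates) with Benjamini-Hochberg adjustment over 39720 probe sets. The 1625 probe sets with 1 constant value on all 4 arrays were left out. Of these, 1624 held a linear intensity of 4.78, and none had a single symbol. Kept, they lower limma's prior degrees of freedom from 2.76 to 0.90 and no probe set passes. The members and lists were chosen with earlier results of these data known. Named are all members, each gene of the NAD list that passed and up to 3 per role that did not, by size of difference. The planned Cd38 against Bst1 comparison and Cd38 likeness could not be computed. Alternatives are in the closing section. The script was tested on simulated data.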

Additional observations from a re-analysis of the deposited data

How the results depend on the processing

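Direction and side of the threshold were kept in 101 of 107 refits of the member probe sets. In one, limited to single-symbol probe sets, Bst1 passed, giving 1 member higher; there 757 probe sets were higher and 879 lower, and 5 NAD list genes higher and 5 lower, with Bst1, Nnt, Parp9, Parp14, Parp4 and Tpcn2 added to the 4 reported. With constant probe sets kept, limma called 0 higher and 0 lower (2927 and 3333 at an unadjusted p under 0.05), and 0 and 0 of the NAD list (11 and 7). Among probe sets above the dim level, 554 were higher and 681 lower, with 2 NAD list genes higher; 2 were also higher with log2(intensity + 16) and with an intensity trend, Parp9 joining Tpcn1 each time (adjusted p = 0.0364, 0.0479 and 0.0473). Without 1 array in turn, 12 to 30 probe sets were higher and 13 to 25 lower, with 0 to 1 of the NAD list higher, 0 lower and 0 members in either direction. Naprt turned to 0.0080 with quantile normalization. Over arrays left out, differences crossed 0 for Naprt (-0.12 to 0.11), Nadk (-0.034 to 0.13), Nt5e (-0.0058 to 0.12), Enpp3 (-0.19 to 0.10) and Kynu (-0.047 to 0.38). The causes were not tested.

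Same-numbered arrays deviated from their group means with a correlation of -0.251 across probe sets, so the labels' numbers are not taken as pairs. The replicate block left 73 probe sets higher and 88 lower, with 1 NAD list gene higher, 0 lower and 0 members in either direction. The crossed replicate block, chosen after seeing the data, gave 194 and 263, and 1 and 1 of the NAD list. Dim signal limits Naprt and Sarm1.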
